A study of Arabidopsis thaliana with 6 samples.

Results

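Lipid transfer proteins and GDSL lipases are secreted or wall-bound plant proteins that act on, or carry, lipids outside the cell. Of 13286 Arabidopsis thaliana genes named on the array, 7 were examined here: the lipid transfer family genes AT2G45180 and AT5G01870, and the GDSL lipase genes AT1G54790, AT5G45670, AT1G29660, AT1G29670 and AT3G16370. They were chosen by family and selected on their measured signal differences between pop2-1 and wild-type flowers, opposite directions included. Those differences are therefore given as a description, and no test of them is read. Each gene has 1 probe set that the annotation assigns to it alone.

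The flowers were whole, pollinated and at stage 14 to 15, from plants of the Ler accession in both groups. One group was homozygous for pop2-1, a mutant allele of POP2, and the other was wild type at that gene. POP2 encodes the transaminase that degrades the amino acid γ-aminobutyric acid (GABA), and the series asked which transcripts differ where flowers hold much GABA. Each group had 3 arrays, named as biological replicates 1 to 3, on Affymetrix ATH1 GeneChips. What a replicate pooled (plants, flowers, days) is not given in the sources used here. Sample titles set the groups, because other label text of the wild-type arrays carries the wording used for the mutant. No probe set was listed for POP2, so the mutated gene itself was not analysed here.

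As background, lipid transfer proteins are small and rich in cysteines, whose disulfide bonds hold a tunnel that binds a fatty acyl chain. In flowers, members of the family are known from the cuticle of epidermal cells, the pollen coat and the transmitting tissue of the style. GDSL lipases are esterases named for a Gly-Asp-Ser-Leu stretch around the catalytic serine. Members of this large plant family act on cutin, the polyester of the cuticle, or on lipids of pollen, seeds and defence. For the 7 genes the annotation used here gives a locus number and no name, so no individual function is stated for them.

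Each value is a MAS5 signal, a linear measure of how strongly RNA hybridised to a probe set. Median signals of the 6 arrays lay between 209.3 and 228.9. One array, pop2-1 replicate 2, lay apart from the rest. Its actin 3'/5' signal ratio, which rises as RNA degrades, was 9.73 against 1.72 to 2.93 on the other 5 arrays. Its GAPDH 3'/5' ratio was 1.73 against 0.895 to 1.04. The 8 floral organ identity genes and 6 epidermal genes taken as markers had no listed probe set. The flower label was therefore seen only in other floral cell types. The nectary sugar exporter SWEET9 gave 6814 to 7367 on the 6 arrays and the pollen pectate lyase gene AT59 gave 1109 to 2045.

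One of the lipid transfer genes was higher in pop2-1 flowers and 6 of the 7 genes were lower. AT2G45180 was 2.83-fold higher. AT5G01870, of the same superfamily, was 3.35-fold lower, and the GDSL lipase genes AT1G54790 and AT5G45670 were 2.44-fold and 1.75-fold lower. For scale, these 4 lay past limma's threshold (adjusted p under 0.05 over all probe sets tested), 1 higher and 3 lower, against 0.462% of the 13647 probe sets tested (0.147% higher and 0.315% lower). Nothing is read from that count, because the same contrast chose the genes.

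AT2G45180 gave signals of 1479, 1245 and 1869 in pop2-1 replicates 1 to 3, and of 535, 448 and 594 in wild-type replicates 1 to 3. The groups did not overlap, and the lowest pop2-1 signal was on replicate 2. Group means were 1531 ± 315 for pop2-1 against 526 ± 73.8 for wild type (SD, n = 3 arrays each), which is a log2 difference of 1.50 ± 0.17 (limma's standard error).

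AT5G01870 gave signals of 211, 233 and 149 in pop2-1 and of 526, 868 and 719 in wild type. All 3 pop2-1 signals lay below all 3 wild-type signals, with means of 198 ± 43.6 and 704 ± 172 (SD, n = 3 arrays each). The log2 difference was -1.74 ± 0.21. Its wild-type replicates were far apart: their SD on the log2 scale was 0.36, and 3.58% of tested probe sets had a larger one.

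Among the GDSL lipase genes all 5 were lower in pop2-1, with a median log2 difference of -0.81, beside 0.03 for all tested probe sets. AT1G54790 was dim, at 109, 80.7 and 75.0 in pop2-1 and 256, 185 and 276 in wild type. Its groups did not overlap, and the log2 difference was -1.28 ± 0.22. All 3 pop2-1 signals lay under 129.7, the level below which a mean signal was not tested. It stayed above the filter through its wild-type signals, and its fold depends on the pseudocount of 16.

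AT5G45670 differed least within groups of these 4 genes. It gave 1503, 1558 and 1613 in pop2-1 and 2563, 2787 and 2866 in wild type. The groups did not overlap, and the log2 difference was -0.81 ± 0.10. Its pop2-1 SD of 0.05 on the log2 scale was exceeded by 95.2% of tested probe sets.

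AT1G29660 was steady in wild type and uneven in pop2-1. Wild-type signals were 870, 852 and 861, a 1.02-fold range, and pop2-1 signals were 618, 223 and 387, a 2.77-fold range. All pop2-1 signals were below all wild-type signals. The log2 difference was -1.15 ± 0.29. Its wild-type SD was exceeded by 98.8% of tested probe sets and its pop2-1 SD by 1.66%. The lowest signal, 223, came from the array with the high actin 3'/5' ratio. Without that array the log2 difference was -0.79, and the part of RNA quality in the value was not tested further.

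AT1G29670 lies next to AT1G29660 on chromosome 1 in the reference annotation, the 1 adjacent pair among the 7 genes. It gave 3665, 2741 and 3256 in pop2-1 and 4177, 3368 and 3863 in wild type, and the groups overlapped. Its log2 difference was -0.24 ± 0.13. AT3G16370 gave 5399, 4519 and 5705 in pop2-1 and 6156, 5409 and 5876 in wild type. Its groups overlapped as well, and the log2 difference was -0.16 ± 0.11. These 3 GDSL lipase genes, AT1G29660, AT1G29670 and AT3G16370, had their lowest signal of all 6 arrays on pop2-1 replicate 2, as had 24.7% of all tested probe sets.

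**Figure D1:**
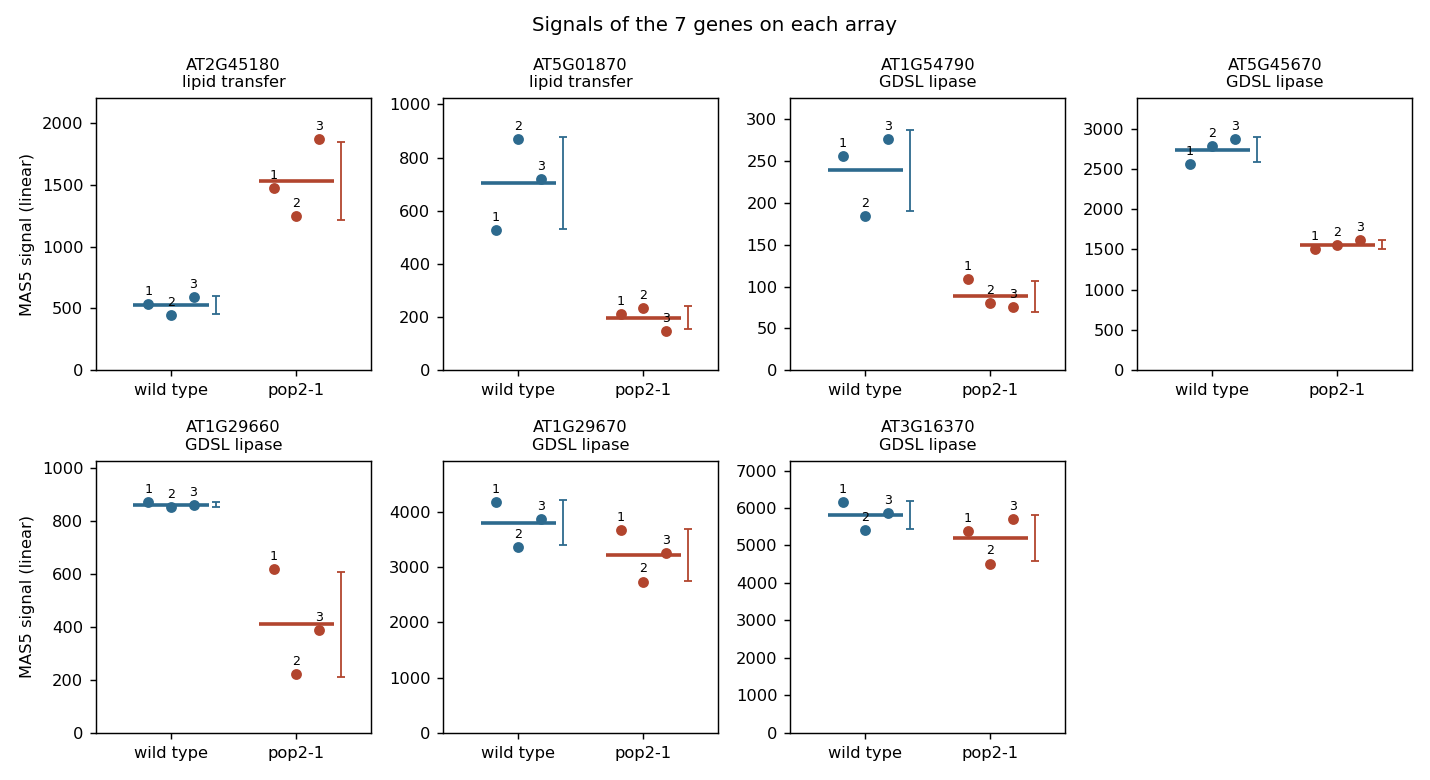
MAS5 signal (linear axis from 0) of each of the 7 genes on the 3 wild-type and 3 pop2-1 arrays, with the replicate number beside each point, the mean as a line and the SD as a bar at its side. AT2G45180 lies higher in pop2-1 on all 3 arrays, and AT1G29660 spans 223 to 618 in pop2-1 beside 852 to 870 in wild type.

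The groups did not overlap in 5 of the 7 genes, 1 higher and 4 lower, where this held for 17.9% of tested probe sets (9.88% higher and 8.06% lower). Again the rule used this contrast. Since whole flowers were extracted, fewer cells of a type and less RNA per cell cannot be told apart in any of these values.

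Arrays of the same replicate number deviated together, so the differences were also taken number by number. Each of the 7 genes kept 1 sign over the 3 numbers. In the 5 genes whose groups do not overlap, any numbering gives that, so it says nothing more for them. This contrast also chose all 7 genes, so the signs are a description. For AT2G45180 the log2 differences were 1.44, 1.44 and 1.63 for numbers 1 to 3, and for AT5G45670 they were -0.76, -0.83 and -0.82. Those of AT5G01870 were wider apart, at -1.25, -1.83 and -2.15. AT1G29660 differed most between numbers, with -0.48, -1.86 and -1.12. Its neighbour AT1G29670 had -0.19, -0.30 and -0.25 on the same arrays, and the gap of number 2 was wide in AT1G29660 and narrow in the gene beside it. That difference between the genes was not tested.

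**Figure D2:**
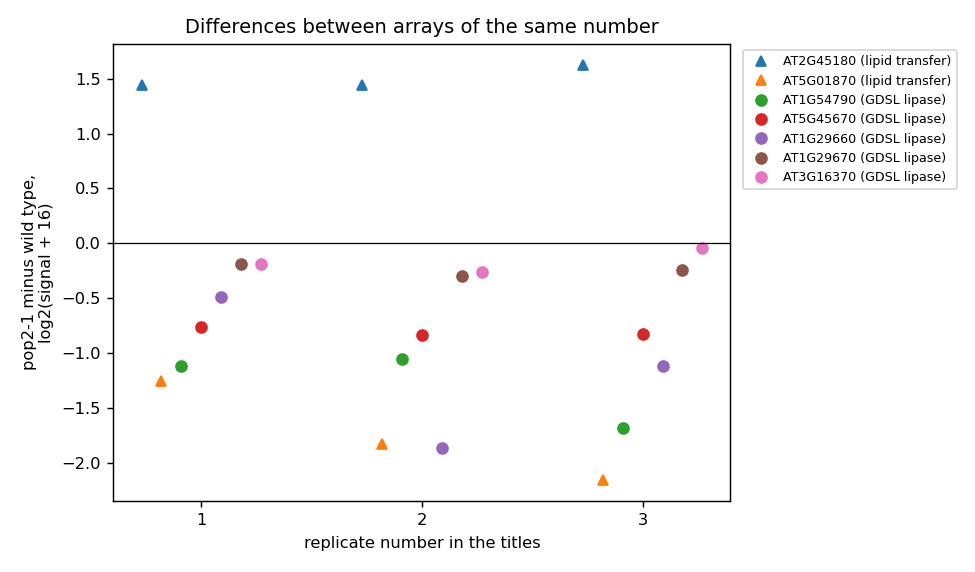
Difference in log2(signal + 16), pop2-1 minus wild type, between the arrays of each replicate number (x axis), with triangles for the lipid transfer genes and circles for the GDSL lipase genes. AT2G45180 is above 0 at each number, from 1.44 to 1.63, and the other 6 genes are below 0 at each number. Where the groups of a gene do not overlap, its sign is the same under any numbering.

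The relatives of these genes were looked at next, since the rule did not name them. The genes that the rule took were left out, so a low count of calls among the rest is partly set by that choice. Loci of the same families were listed from general knowledge of the Arabidopsis genome, not from an annotation of the files. Of 88 further lipid transfer family loci, 38 had a listed probe set and 13 were bright enough to test. The other 25 were too dim. Of 108 further GDSL lipase loci, 69 were listed and 36 tested.

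None of the 13 lipid transfer relatives passed in limma over all probe sets, where 0.462% of tested probe sets did. Nothing is read from that absence. The lipid transfer genes selected on this same contrast had been left out of the list. At a rate of 0.462%, a list of 13 genes would also most likely hold no call. At an unadjusted p under 0.05 there were 2 higher and 2 lower, beside 11.9% of all tested probe sets in either direction (6.45% higher and 5.46% lower). The median log2 difference was 0.04, beside 0.03 for all tested probe sets, with 8 genes higher and 5 lower. That split was 6 higher when arrays were scaled to equal medians. With the replicate block 2 genes passed, both lower, where 1.9% of tested probe sets passed.

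These were AT5G48490 and AT5G09370. AT5G48490 gave 2234, 1691 and 1606 in pop2-1 and 2929, 2996 and 3059 in wild type, with no overlap. Its log2 difference was -0.71 ± 0.13 (limma adjusted p = 0.0635, and 0.0263 with the block). AT5G09370 gave 221, 109 and 218 in pop2-1 and 361, 481 and 628 in wild type, again with no overlap. Its log2 difference was -1.37 ± 0.28 (limma adjusted p = 0.0814, and 0.0215 with the block).

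The lipid transfer relatives with positive differences had smaller ones. AT3G18280 averaged 1927 ± 258 against 1378 ± 207 in wild type (SD, n = 3 arrays each; log2 0.48 ± 0.15, limma adjusted p = 0.246). AT2G10940 averaged 5542 ± 684 against 4569 ± 82.7 in wild type, with a log2 difference of 0.27. AT1G05450 had 0.33 and AT4G22490 had 0.28. None of these 4 passed with the block either. AT2G45180, at 1.50, lay above the highest of the 13 relatives, 0.48, and AT5G01870, at -1.74, below the lowest, -1.37. That is a description, since both genes were chosen for their size.

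Among the 36 GDSL lipase relatives none passed in limma over all probe sets. Nothing is read from that either, because the GDSL lipase genes selected on this contrast had been left out too. At an unadjusted p under 0.05 there were 4 higher and 7 lower. That is 30.6% of the 36 relatives, beside 11.9% of all tested probe sets. AT1G54020, among the 4, was above the filter through pop2-1 alone, at a mean of 205 against 126 in wild type. AT1G73610, among the 7, was above it through wild type alone, at a mean of 288 against 61.5 in pop2-1. Nothing is read from a share that holds both. Their median log2 difference was -0.06, with 14 higher and 22 lower; quantile normalization and equal medians each gave 12 higher. The groups did not overlap in 15 of the 36, 7 higher and 8 lower, beside 17.9% of all tested probe sets. AT1G54020 and AT1G73610 are in that split and among the 15 as well, so nothing is read from these counts. With the replicate block 4 passed, where 1.9% of all tested probe sets did, and each of them was lower in pop2-1. One of the 4, AT1G73610, was above the filter through its wild-type signals alone, so its call and direction support nothing.

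**Figure D3:**
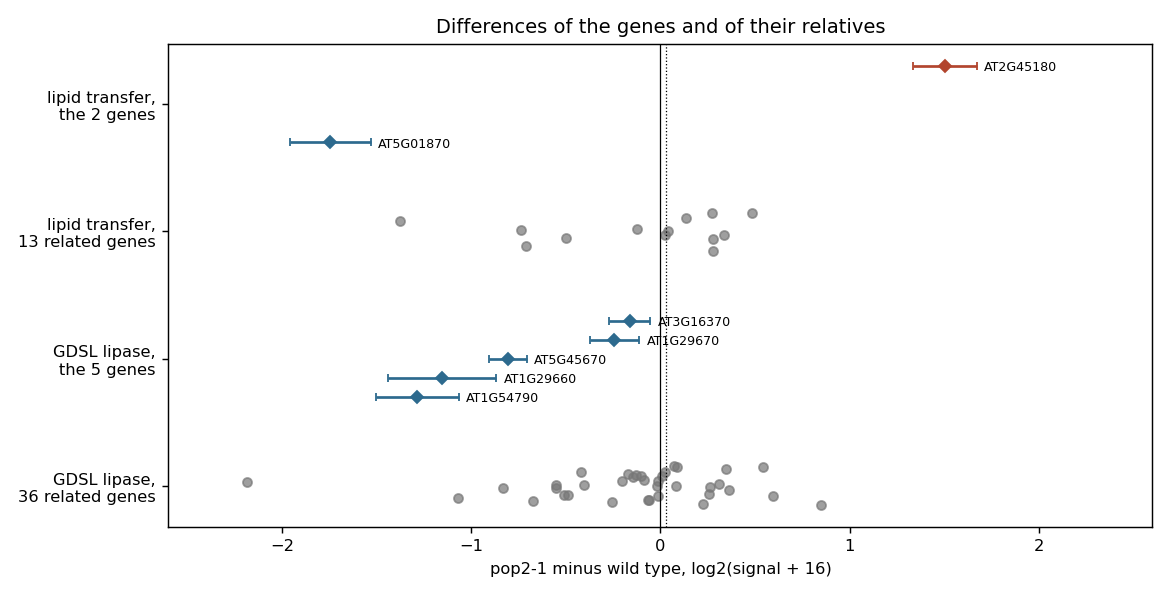
Difference in log2(signal + 16), pop2-1 minus wild type, for the 7 genes (diamonds with limma's standard error) and for the tested relatives of each family (grey points, spread vertically for legibility). The solid line marks 0 and the dotted line the median of all tested probe sets, 0.03; the 36 GDSL lipase relatives run from -2.19 to 0.85.

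AT1G73610 had the largest of these differences and was dim in pop2-1. It gave 83.7, 10.4 and 90.4 there and 209, 312 and 342 in wild type, so it entered the test through its wild-type signals alone and its calls support nothing further (log2 -2.19 ± 0.48, limma adjusted p = 0.107, and 0.0344 with the block). AT5G33370 gave 1004, 507 and 757 in pop2-1 and 1687, 1520 and 1450 in wild type (log2 -1.07 ± 0.21, limma adjusted p = 0.0785, and 0.0154 with the block). AT4G18970 gave 1796, 1300 and 1529 in pop2-1 and 2470, 2299 and 2573 in wild type (log2 -0.67 ± 0.13, limma adjusted p = 0.073, and 0.0215 with the block). In all 3 genes the groups did not overlap and pop2-1 replicate 2 gave the lowest signal.

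AT1G75900 was the fourth. It gave 1863, 993 and 1835 in pop2-1 and 2716, 2431 and 2933 in wild type (log2 -0.83 ± 0.22, limma adjusted p = 0.177, and 0.0276 with the block). Without pop2-1 replicate 2 its log2 difference was -0.53. AT3G48460 stood at -0.55 ± 0.15 and did not pass with the block. AT5G45910 was the one of the 6 named GDSL lipase relatives with a positive difference, at 381, 285 and 309 in pop2-1 and 133, 212 and 180 in wild type (log2 0.85 ± 0.19, limma adjusted p = 0.124, and 0.0732 with the block).

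Of the 6 relatives that passed with the block, AT1G73610 included, 5 had their lowest signal on pop2-1 replicate 2. So had 18 of the 36 tested GDSL lipase relatives and 2 of the 13 lipid transfer relatives, beside 24.7% of all tested probe sets. With the actin 3'/5' ratio as a covariate the same 6 passed, at limma adjusted p from 0.0214 to 0.0458. Of all 13647 tested probe sets, 62 passed as higher and 95 as lower with that covariate. The ratio was 9.73 on pop2-1 replicate 2 and at most 2.93 elsewhere, so the covariate mainly marks that array. When pop2-1 replicate 2 was left out, without the block, AT5G33370 passed at a limma adjusted p of 0.0403. AT1G73610, above the filter through wild type alone, passed at 0.0225, and no other of the 12 named relatives passed. The part of RNA quality in these calls was not tested.

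**Figure D4:**
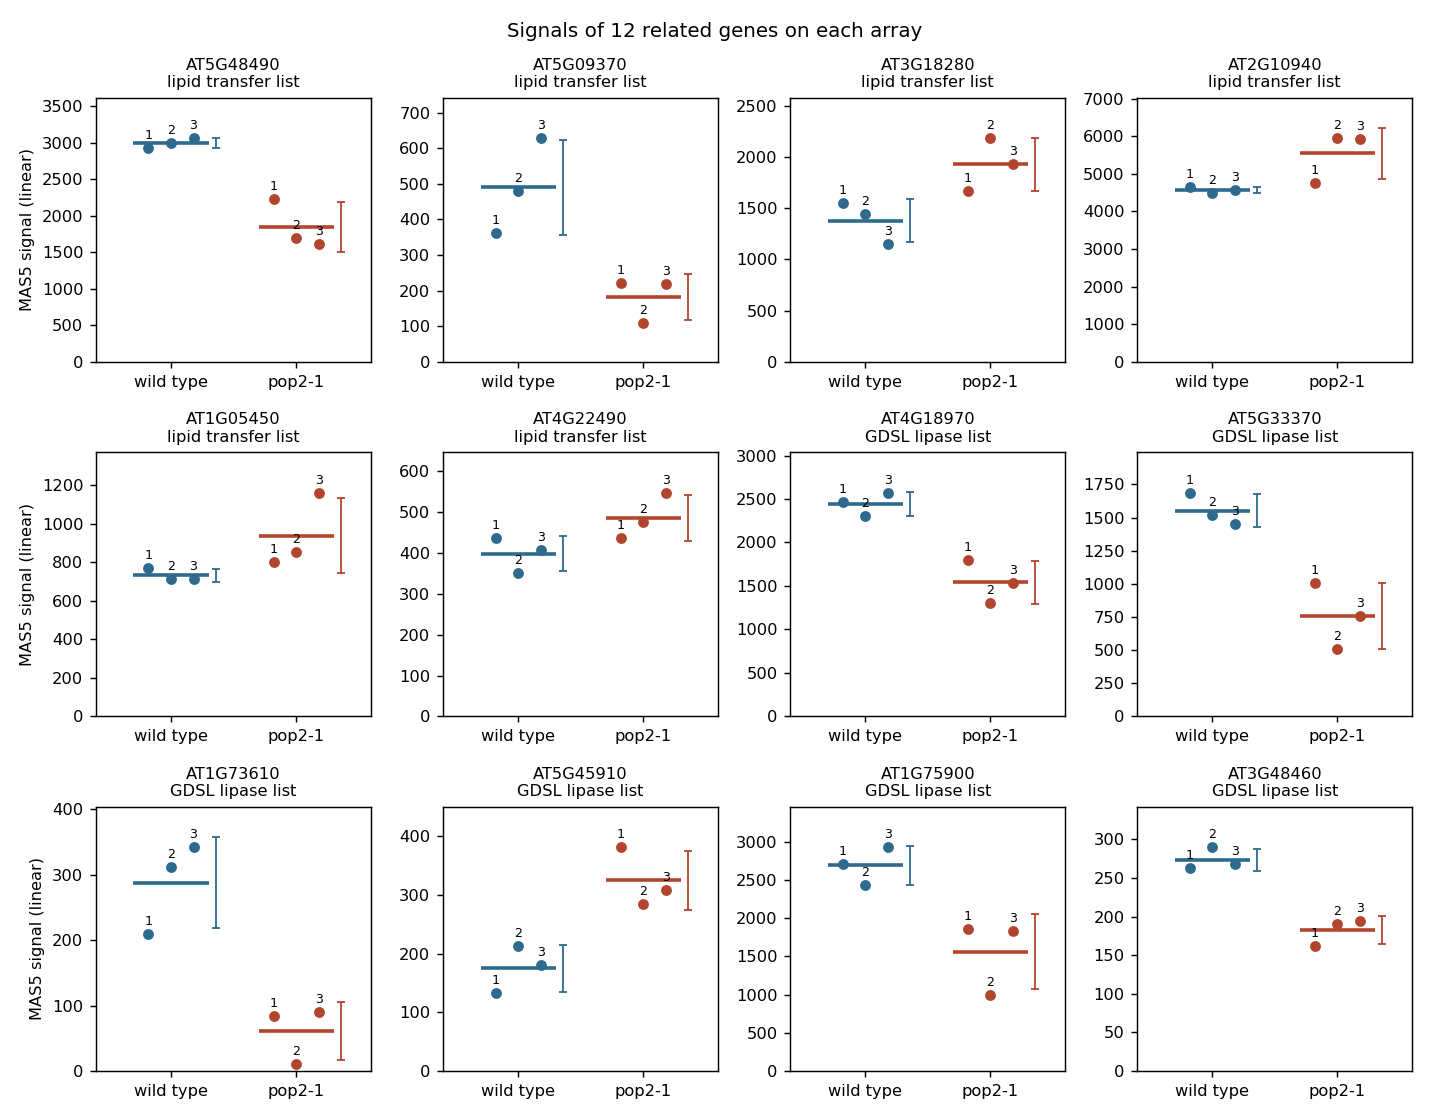
MAS5 signal (linear axis from 0) on each array for the 12 related genes named, 6 per family list, with the replicate number beside each point, the mean as a line and the SD as a bar. In 11 of the 12 genes the wild-type and pop2-1 signals do not overlap, with AT4G22490 the exception, beside 17.9% of all tested probe sets. The 12 were named for the smallest p in this same contrast, so nothing is read from that count. Replicate 2 is the lowest pop2-1 point in AT5G33370 and AT1G75900.

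Several GDSL lipase relatives belong to runs of loci with close numbers, and 3 such runs were looked at after their values were seen. AT1G28570 and AT1G28580 had log2 differences of 0.54 and 0.36, and AT1G28600 and AT1G28610 had -0.49 and 0.23. AT5G45910, at 0.85, sits near AT5G45920, AT5G45950 and AT5G45960, which had -0.10, -0.17 and -0.06. In the third run AT1G75880 and AT1G75900 were both lower, at -0.51 and -0.83. In the reported fit none of these genes passed, while AT1G75900 passed with the block and with the actin 3'/5' covariate. Differences between these genes were not tested. Whether the probe set of 1 such gene also reads its close copies was not tested, AT1G29660 and AT1G29670 included.

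The cuticle pathway was nearly out of reach, with 3 of 44 cutin and wax genes listed. WSD1, a wax ester synthase, gave 2917, 3764 and 3374 in pop2-1 and 2753, 2881 and 2811 in wild type (log2 0.24 ± 0.11, limma adjusted p = 0.432). SHN3, a transcription factor that promotes cuticle synthesis, had a log2 difference of -0.43 ± 0.25, and AT5G61590, listed as DEWAX, a repressor of wax synthesis, one of -0.09 ± 0.15. None of the 3 passed, and none had an unadjusted p under 0.05.

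Genes whose signals followed each of the 7 most closely over the 6 arrays were sought among 7284 other tested probe sets with 1 gene. The arrays are shared, and the r values, which take in both the step between groups and the spread within them, are a description. For AT2G45180 they were P1R1 (r = 0.988) and AT1G52000 (0.987). AT2G38900 (0.994) and AT4G14090 (0.990) followed AT5G01870. AT2G38900 was above the filter through wild type alone, at a mean of 221 against 54.8 in pop2-1.

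For AT1G54790 they were AT3G60420 (0.990) and AT4G00700 (0.984), and for AT5G45670 AT5MAT, an anthocyanin malonyltransferase gene (0.996), and AT5G57910 (0.992). AT5MAT too was above the filter through wild type alone, at a mean of 217 against 119 in pop2-1. AT1G29660 was followed by AT3G07480 (0.996) and AT1G67060 (0.992). AT1G29670 was followed by CHIL, a chalcone isomerase-like gene (0.996), and EXLA1, an expansin-like gene (0.995), and AT3G16370 by AT3G11780 and AT2G14880 (both 0.986). Among the 7 genes themselves, AT1G29670 and AT3G16370, whose groups overlap, correlated at 0.901, and AT2G45180 and AT5G01870 at -0.98.

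Some markers of floral cell types differed between the groups. All 6 tested pollen genes of 7 listed were higher in pop2-1, none passing. The groups did not overlap in 1 of the 6, beside 17.9% of all tested probe sets. That gene, AT2G21480, was above the filter through pop2-1 alone, at a mean of 158 against 106 in wild type. Its direction and its lack of overlap therefore support nothing. Their summed signal, all 7 included, ran from 2455 to 4487 in pop2-1, with 2302 to 3031 in wild type. The 4487 was on pop2-1 replicate 2, the array with the high actin 3'/5' ratio, and the 2455 of replicate 1 lay within the wild-type range. The 4 listed young seed and ovule genes summed to 330 to 447 in pop2-1, below the 458 to 812 of wild type, with AGL62 and IKU2 too dim to test. That gap came from 1 gene, the seed coat gene BAN, at 54.0, 43.5 and 71.2 in pop2-1 and 229, 494 and 458 in wild type. BAN passed as lower and was above the filter through wild type alone. INO, an ovule gene, went the other way without passing, averaging 314 ± 43.1 against 255 ± 69.7 in wild type (SD, n = 3 arrays each). The 3 listed tapetum and pollen coat genes were near the bottom of the scale throughout, with sums of at most 58.3 in pop2-1 and 85.4 in wild type. The 2 nectary genes summed to 7379 to 7929 and 7181 to 7521, nearly all of it SWEET9. The other, the methyltransferase gene BSMT1, rose from 157 ± 26.4 in wild type to 627 ± 58.3 in pop2-1 (log2 1.90 ± 0.15, limma adjusted p = 0.00208). The 2 genes of the style and fruit summed to 822 to 1018 and 864 to 1110. The part of pollen, seed and nectary amounts in the differences above was not tested.

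Over the alternative settings none of the 7 genes changed sign. Where the groups do not overlap, leaving out an array cannot turn the sign, so this says nothing more for those 5 genes. The log2 difference of AT5G45670 moved least, from -0.87 to -0.77, and that of AT2G45180 ran from 1.35 to 1.69. AT5G01870 ran from -2.02 to -1.54, and AT1G54790, which is dim, from -1.45 to -0.99. AT1G29660 was the widest, from -1.50 without pop2-1 replicate 1 to -0.79 without pop2-1 replicate 2. AT1G29670 stayed between -0.34 and -0.12 and AT3G16370 between -0.23 and -0.06.

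**Figure D5:**
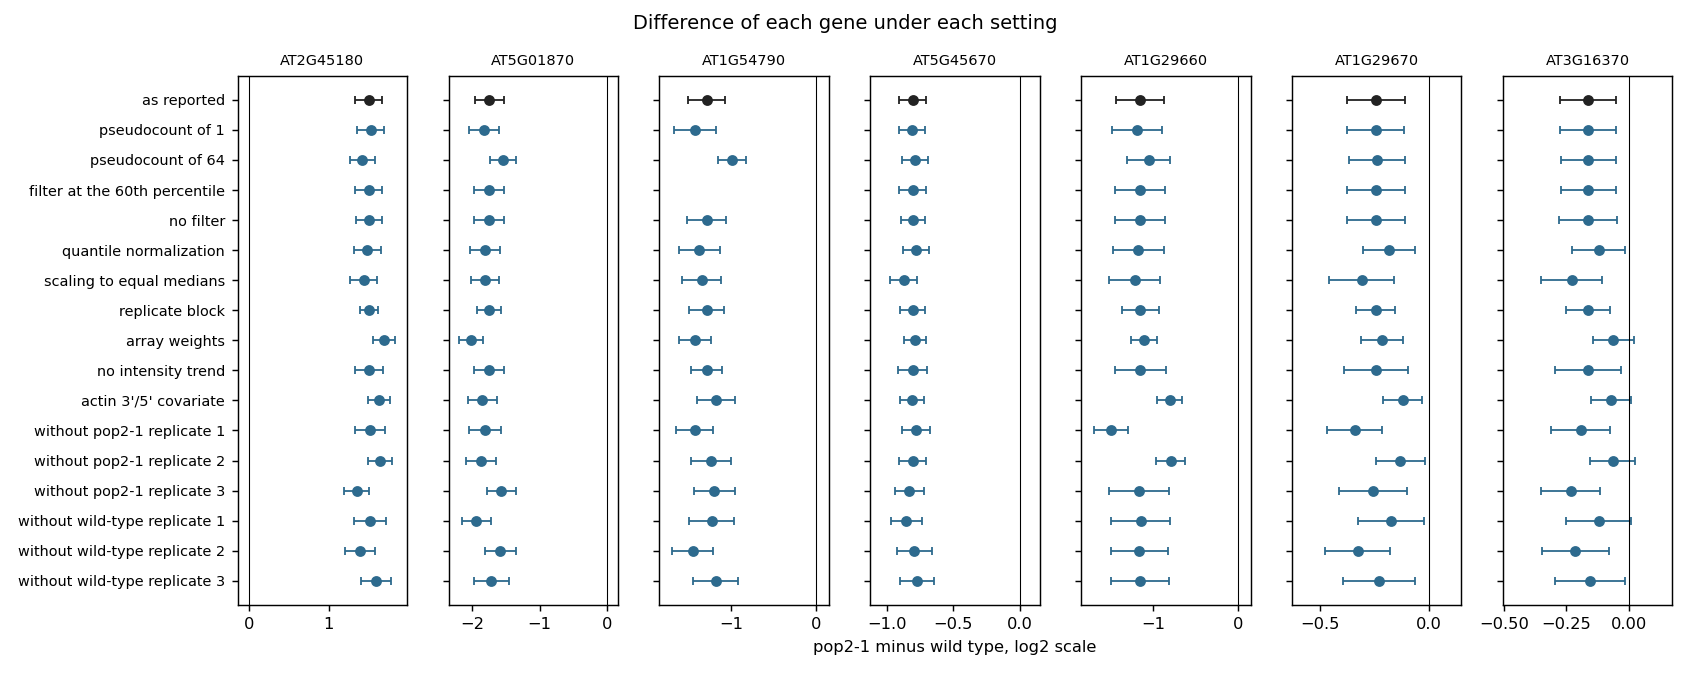
Difference on the log2 scale, pop2-1 minus wild type, of each of the 7 genes under the reported setting (black) and each alternative (blue), with limma's standard error; each panel has its own x scale. AT2G45180 stays between 1.35 and 1.69, while AT1G29660 moves from -1.50 without pop2-1 replicate 1 to -0.79 without pop2-1 replicate 2.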

How the data were processed

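The 6 columns of the deposited table hold MAS5 signals, linear intensity values per probe set that the authors produced; the submitters' processing notes name MAS5. Version and scaling target are not given in the sources used here; the 2% trimmed mean was 500.04 on each array, so a difference compares a gene with the average of its array. No detection calls entered.

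Of 22810 probe sets, 64 controls were left out. The platform annotation gives 1 gene for 13513, several for 503 and none for 8794, and 13436 matched the RefSeq gene table (TAIR10.1) by gene number. Only single-gene probe sets were named. No coordinates or sequences are given.

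A pseudocount of 16 was added, log2 taken, and 13647 probe sets above the 40th percentile of mean signal (129.7) entered limma 3.58.1 under R 4.3.3 (a 2-group lmFit with trended eBayes; 2-sided p adjusted over all tested by Benjamini-Hochberg). Fold changes are on the log2(signal + 16) scale and understate those of dim genes. The fit was also run on simulated arrays with independent noise. Those had no deviation shared by replicate number and no array set apart, so that run does not cover these features of the data. The number of arrays, 3 per group, limits precision, and p-values measure only the spread between these samples.

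Members, lists and settings were chosen with earlier results of these data known. Named are the 7 genes, up to 6 relatives per family list with the smallest p, any that passed, the 2 best correlated genes per member, and marker genes beside a result. Loci of close number were added after their values were seen.

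After subtracting group means, arrays sharing a number correlated at 0.208, 0.418 and 0.172, and arrays of different number at -0.356 to 0.140. The 0.418 joins the 2 arrays with the highest actin 3'/5' ratios, 9.73 and 2.93. The labels state no pairing, so the fit without the block is reported. The replicate number as a block is an alternative, and its value is given where it changed a call of a relative. Alternatives were other pseudocounts, filters, scalings, array weights, no trend, an actin 3'/5' covariate, a threshold of 0.10 and leaving out each array.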

Additional observations from a re-analysis of the deposited data

How the results depend on the processing

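Counts of calls moved with the setting, and the cause was not tested. Over all probe sets there were 20 calls higher and 43 lower in pop2-1. Raising the filter to the 60th percentile left 25 lower, and testing every probe set left 27. The replicate block gave 109 higher and 150 lower, array weights 477 and 495, the actin 3'/5' covariate 62 and 95, and an adjusted p under 0.10 gave 64 and 88. Leaving out 1 array gave 3 to 193 higher and 2 to 316 lower, the most without pop2-1 replicate 1. Of the 7 genes 4 lay past the threshold, and 0 to 5 did when 1 array was left out, with 0 without pop2-1 replicate 3 or wild-type replicate 2; the contrast chose these genes, so nothing is read from that. Lipid transfer relatives passing numbered 0, but 2 with the block, 5 with array weights, 2 with the covariate and 2 at an adjusted p under 0.10, and 0 to 2 with 1 array left out. For GDSL lipase relatives the count was 0, but 4 with the block, 9 with array weights, 4 with the covariate and 2 at the looser threshold, and 0 to 5 with 1 array left out. AT1G73610, above the filter through wild type alone, is counted with the block and with the covariate. Among the cutin and wax genes 1 passed with array weights and 0 otherwise. The log2 difference of AT1G29660 was -0.80 with the covariate. AT1G54790 was not tested at the 60th percentile. No scaling turned the sign of any of the 7 genes or of the 12 relatives named. The number of arrays limits each of these counts, and signals near the level of 129.7 are not known to lie above background.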
